A study of Homo sapiens with 9 samples.

Results

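The 29 genes described here encode the pathway by which a human cell makes cholesterol, the proteins that carry cholesterol inside the cell, and the proteins that control the transcription factor SREBP-2. They were chosen by name, from a list of mevalonate and sterol pathway genes, and all 29 were found among the 15983 genes of the deposited count table. Expression was measured by RNA sequencing in KGN, a human granulosa cell tumour line that the labels give as wild type and that serves as a model of ovarian granulosa cells. Cells were fasted for 12 h, as were the controls, and then kept for 72 h with solvent (control, 3 libraries), with 0.5 µg/ml insulin (lower dose, 3 libraries) or with 1 µg/ml insulin (higher dose, 3 libraries). KGN derives from a single tumour. Separate cultures for the libraries of a group are not mentioned in the labels, and the p-values therefore reflect the spread among 9 libraries, some or all of which may be technical. The question the design addresses is how granulosa cells respond to high insulin.

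Cholesterol is built from acetyl-CoA through mevalonate, the isoprenoid diphosphates and squalene, and then by a long series of steps on the sterol rings. When cholesterol in the endoplasmic reticulum is low, SCAP carries SREBP-2 to the Golgi, where the proteases encoded by MBTPS1 and MBTPS2 release its active part, which enters the nucleus and turns on the genes of the pathway. When sterols are plentiful, the INSIG proteins hold SCAP and SREBP-2 back. Granulosa cells use cholesterol as the starting material of steroid hormones, and insulin is known, mainly from liver, to act on the SREBP family.

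SREBP proteins bind sterol regulatory elements, usually beside CCAAT boxes, which bind the factor NF-Y. Promoter sequences (300 bases, from 250 before to 50 after a RefSeq transcript start, build GRCh38.p14) were at hand for 26 of the 29 genes, with 35 promoters in all. The motif TCACNCCAC, searched on both strands, was found in 1 of these 35 promoters (2.86%), against 1.13% of 35116 human promoters of the same length. CCAAT was found in 20 of the 35 (57.1%), from 18 genes, against 34.6% of all promoters. The shorter motif CACNCCAC, which lies inside the first one, was found in 5 of the 35 (14.3%), from 4 genes, against 5.87%. Those genes were INSIG1, IDI1, SC5D and SREBF2. The overlapping SC5D promoters, which share a site, are among the 5 promoters. GGGCGG, the GC box, was found in 29 of the 35 (82.9%), from 22 genes, against 45%. The 35116 promoters were not limited to genes expressed in KGN cells, unlike those of the list. Overlapping promoters of the same gene (HMGCS1, IDI1, SC5D, NPC2 and INSIG2) were counted separately. A match is a description of the letters and not a binding site. The 4 promoters below are shown because SREBF2 held the match to the longest motif, MVD held 3 CCAAT boxes, and INSIG1 and HMGCS1 are among the genes whose values are given in most detail below. Capitals mark CCAAT on either strand (read as ATTGG on the reverse strand) and the sterol motif, and each sequence runs 5′ to 3′ on the strand of the gene.
SREBF2, chr22:41832855-41833154, plus strand: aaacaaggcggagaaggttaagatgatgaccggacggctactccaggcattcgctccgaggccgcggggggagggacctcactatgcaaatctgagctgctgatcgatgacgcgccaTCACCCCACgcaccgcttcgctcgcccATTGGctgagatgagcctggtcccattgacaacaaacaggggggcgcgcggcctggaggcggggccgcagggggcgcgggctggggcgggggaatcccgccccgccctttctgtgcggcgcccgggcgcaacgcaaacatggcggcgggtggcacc
MVD, chr16:88663042-88663341, minus strand: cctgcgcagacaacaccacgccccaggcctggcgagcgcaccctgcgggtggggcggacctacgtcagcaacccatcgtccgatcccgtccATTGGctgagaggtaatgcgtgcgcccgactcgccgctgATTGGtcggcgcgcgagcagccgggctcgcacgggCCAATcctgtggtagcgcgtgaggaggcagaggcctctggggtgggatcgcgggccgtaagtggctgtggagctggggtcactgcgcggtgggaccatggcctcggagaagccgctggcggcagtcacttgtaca
INSIG1, chr7:155297628-155297927, plus strand: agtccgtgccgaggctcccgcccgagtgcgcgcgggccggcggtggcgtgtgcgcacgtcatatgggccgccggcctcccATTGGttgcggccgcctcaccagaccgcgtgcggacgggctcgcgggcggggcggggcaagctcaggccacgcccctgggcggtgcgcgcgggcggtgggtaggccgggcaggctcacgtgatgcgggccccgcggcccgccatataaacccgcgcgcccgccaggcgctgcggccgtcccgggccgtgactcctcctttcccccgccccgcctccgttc
HMGCS1, chr5:43313363-43313662, minus strand: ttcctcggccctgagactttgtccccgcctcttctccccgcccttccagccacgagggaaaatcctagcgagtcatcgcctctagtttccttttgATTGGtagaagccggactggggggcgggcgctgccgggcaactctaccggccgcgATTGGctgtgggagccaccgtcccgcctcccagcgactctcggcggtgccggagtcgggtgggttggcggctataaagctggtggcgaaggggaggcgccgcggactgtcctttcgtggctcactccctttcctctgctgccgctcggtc
The sterol motif of SREBF2, the gene that encodes SREBP-2 itself, began at -133 from the transcript start and was followed by a CCAAT box at -106 on the opposite strand. HMGCS1 has 2 promoters in the table: in the one shown the CCAAT boxes lay at -155 and -100, and the other (chr5:43313132-43313431) held none. In the MVD promoter they lay at -159, -120 and -85.

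Library totals ran from 18965722 to 20446405 counts, and a count of 0 in the smallest library allows up to 3 counts, or 0.158 CPM (counts per 1000000 counts of the library), a limit that covers counting error only. Of the granulosa markers, FOXL2 stood at 26.2 ± 2.001 CPM, FSHR at 18.1 ± 2.48 CPM and AMH at 12.5 ± 1.33 CPM (SD, n = 9). All 11 listed markers passed the filter on low counts, but INHA was low, at 0.656 ± 0.267 CPM (SD, n = 9) and 118 counts in all. The theca markers CYP17A1, INSL3 and LHCGR had 1 count each over the 9 libraries. Of the other lists, the leukocyte marker PTPRC had 322 counts in all, more than INHA, and the epithelial marker EPCAM 7. The endothelial markers VWF, PECAM1 and CDH5 had 228, 53 and 3 counts. The epithelial keratin genes KRT18, KRT8 and KRT7 were expressed at 1755, 55.1 and 21.6 CPM. Library 1 of the lower dose stood apart: its counts differed from those of the other lower-dose libraries with a chi-square of 7.75 and 8.19 per degree of freedom, against 2.17 between those other libraries and 2.58 to 6.5 within the control and higher-dose groups. The counts over the list by p-value and by direction that involve the lower dose are given with and without it. Counts of genes whose groups do not overlap are given only with it. In RNA from many cells, fewer cells that express a gene and less of its RNA per cell cannot be told apart.

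KGN cells expressed the whole list. All 29 genes passed the filter on low counts, and their median level was 21.2 FPKM (fragments per kilobase of transcript, scaled to library size), against 6.83 FPKM over the 12665 genes tested, with 26 of the 29 above that median. NPC2, which hands cholesterol over inside the lysosome, had the highest mean at 128 FPKM over the 9 libraries. FDPS, which makes farnesyl diphosphate, followed at 98.8 FPKM, and INSIG1 at 88.7 FPKM. MSMO1, a sterol methyl oxidase, stood at 77.00 FPKM, FDFT1 (squalene synthase) at 56.00 FPKM and DHCR7, which makes cholesterol from 7-dehydrocholesterol, at 53.7 FPKM. SREBF2 stood at 45.9 FPKM, well above its partner SCAP at 19.5 FPKM. The lowest levels were those of the sterol reductase gene TM7SF2 at 5.35 FPKM and of HSD17B7, a sterol ketone reductase, at 4.85 FPKM. INSIG2 stood at 6.50 FPKM, far below INSIG1. HSD17B7 is uncertain, because its longest coding transcript matched the pseudogene HSD17B7P2 over 100% of its length at no less than 97% identity. For CYP51A1, 88.7% of the transcript is also annotated to the overlapping gene AC000120.2. Antisense or opposite-strand genes share 46% of the ACAT2 transcript, 34.4% of FDPS and 20.1% of HMGCS1, and 24.5% of GGPS1 is shared with its neighbour TBCE. The strand setting of the counting is not given in the sources used here, so reads of such partners cannot be told apart.

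**Figure D1:**
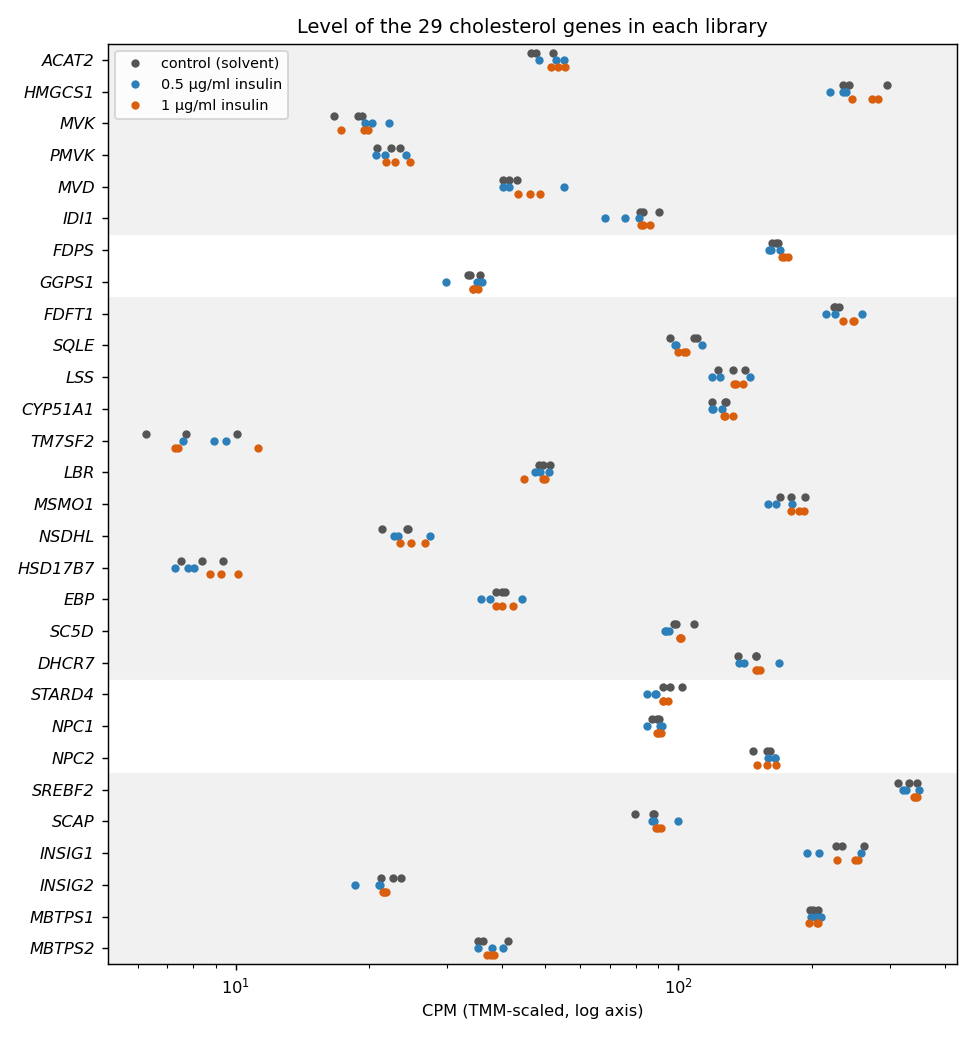
Level of each of the 29 genes in each library, in CPM on a log axis, with 1 point per library and colours for control, 0.5 µg/ml and 1 µg/ml insulin. Shaded bands separate the roles. The 3 groups of points lie close together for nearly every gene: SREBF2, the highest on this scale, lay between 314 and 349 CPM in all 9 libraries, and TM7SF2, between 6.27 and 11.2 CPM, was the most scattered.

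Levels varied little among the libraries. The coefficient of variation over the 9 libraries had a median of 6.26% for the 29 genes, against 5.87% for the 9340 tested genes in the same range of CPM. It was lowest for MBTPS1, which encodes the first of the SREBP proteases, at 2.13%, and highest for TM7SF2 at 18.8%. Differences between the 3 groups made up a median of 25.5% of the variance of a gene, against 20.6% over all tested genes, and ranged up to 68.2% for FDPS.

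No gene of the list passed the test in any comparison. Lower dose against control, 0 of 29 had an adjusted p under 0.05 by edgeR's quasi-likelihood test, as did 0% of all genes tested, and the smallest adjusted p among the 29 was 0.764. An unadjusted p under 0.05 was found for 4 of the 29 (IDI1, STARD4, HMGCS1 and SC5D), against 6.08% of all genes. MVK was the only 1 of the 29 with all lower-dose libraries above all controls (background 5.1%), while IDI1, SC5D, STARD4 and INSIG2 had all lower-dose libraries below all controls (4 of 29, background 5.61%). The log2 fold change was above 0 for 13 of 29, against 51.9% of all genes, and its median was -0.01 for the list and 0.00 for all genes. Without library 2 of the lower dose it was above 0 for 18 of 29, with a median of 0.01 for the list. The values without library 1 of that dose, which go the other way, are given further on.

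Higher dose against control, 0 of 29 were called, against 0% of all genes, and every adjusted p of the list was 1.00 by edgeR. No gene of the list had an unadjusted p under 0.05 (background 2.35%), and the smallest was that of ACAT2, 0.0544. That count of 0 moved in 9 of 16 alternative settings, to at most 3, as it did without library 1 of the lower dose. MVD, FDPS, FDFT1, DHCR7 and SCAP had all higher-dose libraries above all controls (5 of 29, background 3.81%), and 0 of 29 had all of them below (background 3.92%). The fold change was above 0 for 23 of 29, against 49.8% of all genes, with a median log2 fold change of 0.04 for the list and 0.00 for all genes. This count rested on the controls: without control library 1 it was 15 of 29 with a median of 0.00, and without control library 3 it was 25 of 29 with a median of 0.07.

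Higher dose against lower dose, 0 of 29 were called, against 0% of all genes, and the smallest adjusted p of the list was 0.85 by edgeR. HMGCS1, IDI1, MSMO1 and HSD17B7 had an unadjusted p under 0.05 (4 of 29, background 5.64%). Groups did not overlap for 8 genes, all higher at the higher dose (HMGCS1, IDI1, FDPS, CYP51A1, HSD17B7, SC5D, STARD4 and INSIG2; background 5.85%), and for 0 genes in the other direction (background 6.31%). The fold change was above 0 for 21 of 29, against 49.5% of all genes, and the median log2 fold change was 0.04. Without library 2 of the lower dose, 1 gene had an unadjusted p under 0.05 and 16 of 29 were above 0; the larger counts without library 1 of that dose are given further on. The test over all 3 groups together called 0 of 29 (0% of all genes), and IDI1, HMGCS1 and STARD4 had an unadjusted p under 0.05, against 4.43% of all genes. This count of 3 was 0 without library 2 of the lower dose and 9 without library 1. The comparisons share libraries, so their counts are not independent of each other. Within a count the genes are not independent either, because most varied together within groups (median r of 0.38 over pairs, described further on). A shift in a single library can move many of them, so the counts are a description beside the background shares.

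The intervals of the fold change give a range for each gene taken alone. The 95% interval of the fold change lay within 1.5-fold of no change for all 29 genes in each of the 3 comparisons, as it did for 87.5% to 87.9% of all genes tested. The highest upper end was 1.39-fold at the lower dose and 1.38-fold at the higher dose against control, both for TM7SF2, and 1.44-fold for HSD17B7 between the doses. The lowest lower end was 0.770-fold, for HSD17B7 at the lower dose against control. Intervals cover the spread between these libraries only, and they are not corrected for the number of genes and comparisons.

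**Figure D2:**
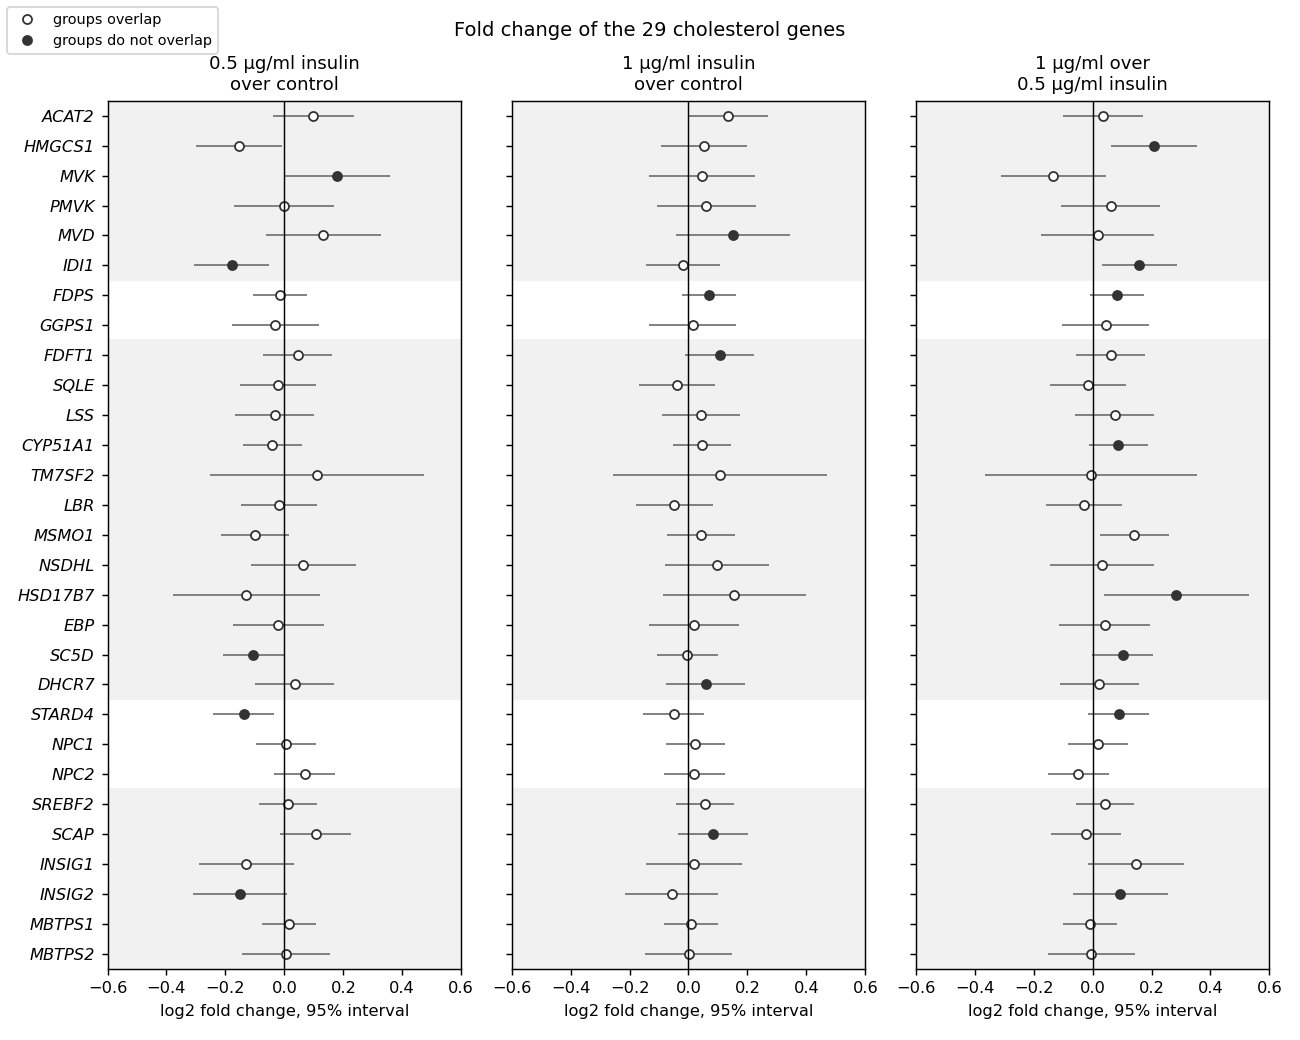
Fold change of each gene on the log2 scale with its 95% interval (edgeR quasi-likelihood fit over 9 libraries), for 0.5 µg/ml insulin over control, 1 µg/ml insulin over control, and 1 over 0.5 µg/ml insulin. Filled points mark genes whose 2 groups do not overlap. Points lie on both sides of 0 in the first panel (13 of 29 above), and more lie above it in the second (23 of 29) and the third (21 of 29).

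The first 6 enzymes lead from acetyl-CoA to isopentenyl diphosphate and its isomer. HMGCS1, which makes HMG-CoA and lies at chr5:43289395-43313512 on the minus strand (hg38), stood at 235, 243 and 295 CPM in control, at 238, 220.3 and 236 CPM at the lower dose and at 246, 274 and 282 CPM at the higher dose. Control library 3 was the highest of all, and each higher-dose library lay above each lower-dose library. Higher dose against lower dose, its means were 267 ± 18.7 and 231 ± 9.73 CPM (SD, n = 3 each) and its log2 fold change 0.21 ± 0.07 (SE, adjusted p = 0.85, edgeR). Lower dose against control, the log2 fold change was -0.15 ± 0.07 (SE, adjusted p = 0.792, edgeR), and it was -0.05 without control library 3. Higher dose against control, it was 0.05 ± 0.07 (SE), but -0.01 without control library 1 and 0.16 without control library 3.

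IDI1, the isomerase that turns isopentenyl diphosphate into dimethylallyl diphosphate (chr10:1039152-1049170, minus strand), had the smallest p of the list at the lower dose. Its levels were 83.2, 81.8 and 90.2 CPM in control, 81.2, 68.4 and 75.9 CPM at the lower dose and 83.1, 86.3 and 82.5 CPM at the higher dose. All lower-dose libraries lay below all the others, the first by a small margin. The mean was 75.2 ± 6.46 CPM at the lower dose and 85.1 ± 4.53 CPM in control (SD, n = 3 each), with a log2 fold change of -0.18 ± 0.06 (SE, unadjusted p = 0.00821, adjusted p = 0.764, edgeR). Higher dose against lower dose it was 0.16 ± 0.06 (SE, adjusted p = 0.85, edgeR), and higher dose against control it was -0.02. Without library 2 of the lower dose, the first of these values was -0.12 and the second 0.10.

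MVK, mevalonate kinase, was measured at 16.7, 18.9 and 19.3 CPM in control, at 22.2, 19.6 and 20.3 CPM at the lower dose and at 19.9, 19.5 and 17.3 CPM at the higher dose. Its lower-dose libraries all lay above the controls, and its log2 fold change there was 0.18 ± 0.09 (SE, adjusted p = 0.792, edgeR), or 0.12 without control library 1. MVD, which decarboxylates mevalonate diphosphate, stood at 40.1, 41.3 and 43.2 CPM in control, at 55.3, 40.1 and 41.3 CPM at the lower dose and at 43.3, 46.3 and 48.7 CPM at the higher dose. Library 1 of the lower dose was far above the other libraries of its group, which lay close to the controls. Higher dose against control, MVD averaged 46.1 ± 2.67 and 41.5 ± 1.54 CPM (SD, n = 3 each), a log2 fold change of 0.15 ± 0.09 (SE), and the groups were set apart by only a narrow gap. ACAT2, which joins acetyl-CoA units at the head of the pathway, ranged from 46.5 to 55.4 CPM, and PMVK, phosphomevalonate kinase, from 20.7 to 24.8 CPM. Of these 6 genes, 3 had a fold change above 0 at the lower dose and 5 at the higher dose against control, with medians of 0.05 and 0.06 on the log2 scale.

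The next 2 enzymes make prenyl diphosphates, which also serve to anchor proteins in membranes. FDPS stood at 168, 166 and 163 CPM in control, at 169.6, 160.1 and 162 CPM at the lower dose and at 173, 177 and 172 CPM at the higher dose. All higher-dose libraries lay above the other 6. Higher dose against control, FDPS averaged 174 ± 2.58 and 166 ± 2.47 CPM (SD, n = 3 each), a log2 fold change of 0.07 ± 0.04 (SE), and against the lower dose it was 0.08 ± 0.04 (SE, adjusted p = 0.851, edgeR). FDPS was thus the gene of the list with the largest share of variance between groups, while the difference itself was small. GGPS1, which makes geranylgeranyl diphosphate, ranged from 29.9 to 35.9 CPM, and its lowest value was that of library 1 of the lower dose.

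The 12 genes from squalene to cholesterol began with FDFT1, which joins farnesyl units into squalene. FDFT1 was measured at 225, 224 and 230.1 CPM in control, at 259, 216 and 226 CPM at the lower dose and at 235, 249 and 247 CPM at the higher dose. Its higher-dose libraries all lay above the controls, and its lower-dose libraries lay on both sides of them. Higher dose against control, the means were 244 ± 7.32 and 226 ± 3.17 CPM (SD, n = 3 each) and the log2 fold change 0.11 ± 0.06 (SE). SQLE, squalene epoxidase, a rate-limiting enzyme of sterol synthesis, stood at 95.6, 109 and 110.3 CPM in control, at 113, 98.7 and 97.98 CPM at the lower dose and at 104, 99.99 and 103 CPM at the higher dose. The 3 groups of SQLE overlapped, with log2 fold changes of -0.02 ± 0.06 at the lower dose and -0.04 ± 0.06 at the higher dose against control (SE). Leaving out 1 library moved the second value between -0.10 (without control library 1) and 0.00 (without control library 3). LSS, lanosterol synthase, ranged from 119 to 145 CPM, with its lowest and its highest value both among the lower-dose libraries.

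CYP51A1, the lanosterol demethylase, was measured at 128, 119 and 127 CPM in control, at 125, 119 and 119.7 CPM at the lower dose and at 127, 133 and 127 CPM at the higher dose. Its higher-dose libraries all lay above the lower-dose libraries, with a log2 fold change of 0.09 ± 0.05 (SE). MSMO1 stood at 169, 179 and 193 CPM in control, at 181, 159 and 166 CPM at the lower dose and at 179, 187 and 192 CPM at the higher dose. Its groups overlapped through library 1 of the lower dose, and the log2 fold change of the higher over the lower dose was 0.14 ± 0.06 (SE, adjusted p = 0.85, edgeR). HSD17B7 had 7.5, 8.40 and 9.35 CPM in control, 8.04, 7.30 and 7.78 CPM at the lower dose and 8.76, 10.1 and 9.27 CPM at the higher dose. Its log2 fold change of 0.28 ± 0.12 between the doses (SE, adjusted p = 0.85, edgeR) was the largest of the list, on a low level and on reads that a pseudogene may share. TM7SF2 and LBR, which encode sterol reductases of the same step, ranged from 6.27 to 11.2 CPM and from 44.8 to 51.3 CPM. NSDHL, a sterol dehydrogenase, ranged from 21.4 to 27.4 CPM, and EBP, a sterol isomerase, from 35.8 to 44.2 CPM.

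SC5D, the sterol desaturase, stood at 97.4, 98.5 and 108 CPM in control, at 95.4, 93.9 and 93.4 CPM at the lower dose and at 101, 101 and 101 CPM at the higher dose. Lower-dose libraries lay below all the others. Its log2 fold change was -0.11 ± 0.05 at the lower dose against control (SE, adjusted p = 0.792, edgeR) and 0.10 ± 0.05 at the higher dose against the lower dose. Without control library 3 the first was -0.06. DHCR7 stood at 136, 149.7 and 149 CPM in control, at 169, 137 and 141 CPM at the lower dose and at 151, 153 and 149.9 CPM at the higher dose. Its higher-dose libraries lay above the controls by less than 1 CPM at the nearest pair, and the log2 fold change was 0.06 ± 0.06 (SE), or 0.02 without control library 1. Over the 12 genes, 4 had a fold change above 0 at the lower dose and 9 at the higher dose against control, with medians of -0.02 and 0.04 on the log2 scale.

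Of the 3 transport genes, STARD4, which carries cholesterol between membranes, stood at 95.5, 92.1 and 102 CPM in control, at 88.7, 89.1 and 85.1 CPM at the lower dose and at 94.8, 92.4 and 92.1 CPM at the higher dose. All lower-dose libraries lay below all the others. The mean was 87.6 ± 2.20 CPM at the lower dose and 96.4 ± 4.82 CPM in control (SD, n = 3 each), with a log2 fold change of -0.14 ± 0.05 (SE, unadjusted p = 0.0121, adjusted p = 0.764, edgeR). NPC1, which moves cholesterol out of the lysosome together with NPC2, ranged from 84.99 to 91.7 CPM, and NPC2 from 148 to 166 CPM. Neither had groups that were set apart in any comparison.

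All 6 genes of SREBP-2 control were expressed, and none was called. SREBF2 (chr22:41833079-41907308, plus strand) stood at 314, 332 and 345 CPM in control, at 349, 327 and 322 CPM at the lower dose and at 339.7, 346 and 343 CPM at the higher dose. Its groups overlapped in every comparison, with log2 fold changes of 0.01 ± 0.05 at the lower dose and 0.05 ± 0.05 at the higher dose against control (SE). The second was 0.02 without control library 1 and 0.09 without control library 3. SCAP, the escort of SREBP-2, had 79.6, 88.1 and 87.7 CPM in control, 99.5, 88.2 and 87.3 CPM at the lower dose and 90.1, 89.1 and 91.5 CPM at the higher dose. Its higher-dose libraries lay just above the controls, and its log2 fold changes against control were 0.11 ± 0.06 at the lower dose (adjusted p = 0.803, edgeR) and 0.08 ± 0.06 at the higher dose (SE). The first was 0.04 without library 1 of the lower dose, and the second 0.04 without control library 1. MBTPS1 ranged from 197 to 209 CPM and MBTPS2 from 35.2 to 41.3 CPM.

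In library 1 of the lower dose INSIG1 was near the top of its range and INSIG2 at the bottom. INSIG1 (chr7:155297776-155310235, plus strand), itself a target of SREBP-2, stood at 227, 234 and 262 CPM in control, at 258, 196 and 207 CPM at the lower dose and at 228, 249.98 and 254 CPM at the higher dose. That library was second to control library 3, and the other lower-dose libraries lay below all the rest. The log2 fold change was -0.13 ± 0.08 at the lower dose (adjusted p = 0.808, edgeR) and 0.02 ± 0.08 at the higher dose against control (SE). The first was -0.26 without library 1 of the lower dose and -0.05 without library 2. INSIG2 (chr2:118088452-118110997, plus strand) stood at 22.7, 23.6 and 21.3 CPM in control, at 18.6, 21.1 and 21.1 CPM at the lower dose and at 21.5, 21.6 and 21.8 CPM at the higher dose. There library 1 of the lower dose was the lowest of the 9, and the lower-dose group lay below control with a log2 fold change of -0.15 ± 0.08 (SE, adjusted p = 0.792, edgeR). Without that library the log2 fold change of INSIG2 was -0.09.

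The level of the list as a whole ranged more widely among the lower-dose libraries than among the 3 group means. Each gene's log2 CPM was centred on its mean over the 9 libraries, and the mean over the 29 genes was then -0.0535, -0.0271 and 0.0522 in control, 0.0541, -0.0866 and -0.0372 at the lower dose and 0.0115, 0.0524 and 0.0341 at the higher dose. Group means were -0.01 ± 0.06, -0.02 ± 0.07 and 0.03 ± 0.02 in order of dose (SD, n = 3 each), and the groups overlapped. The lowest and the highest library of all were both lower-dose libraries. Library 1 of the lower dose was the highest of the 9 for 12 genes, among them MVD, FDFT1, SQLE, LSS, DHCR7 and SCAP, while library 2 of the same dose was the lowest for 12 genes, among them HMGCS1, MVD, IDI1, FDPS and INSIG1. Control library 1 was the lowest for 7 genes and control library 3 the highest for 7. The higher-dose libraries held 24, 27 and 19 of the 29 genes above their own mean, against 8, 9 and 20 in control.

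**Figure D3:**
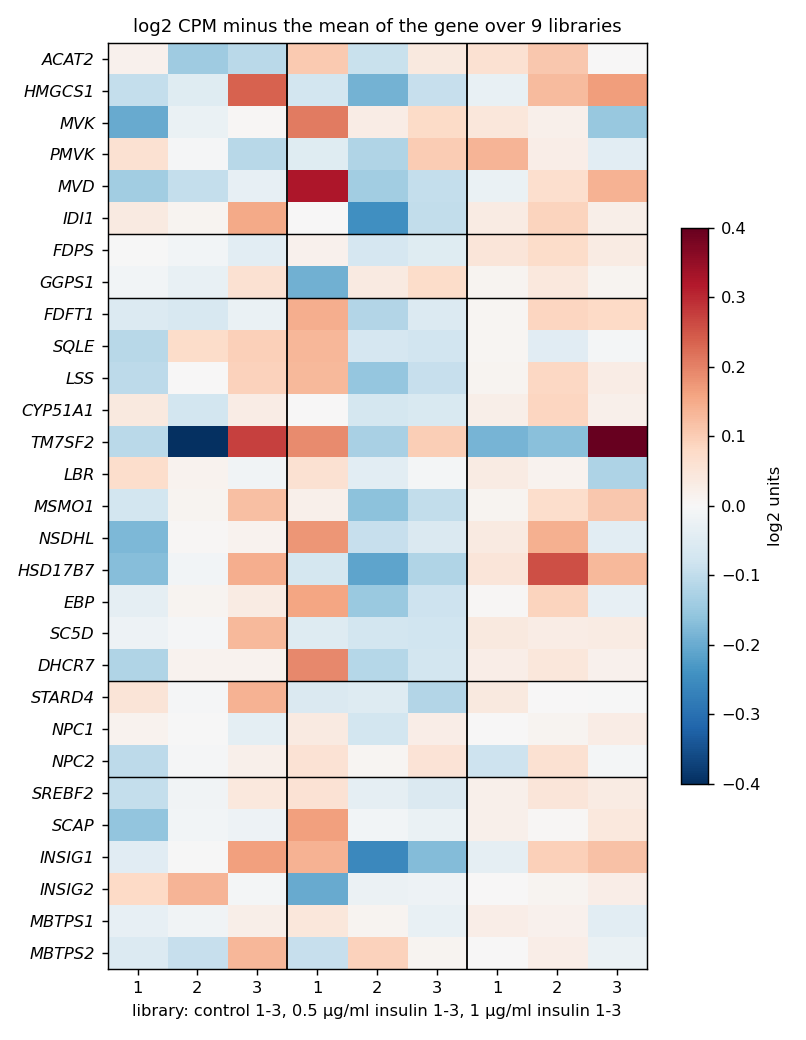
Log2 CPM of each gene minus its mean over the 9 libraries, with 1 column per library (control 1 to 3, 0.5 µg/ml insulin 1 to 3, 1 µg/ml insulin 1 to 3) and horizontal lines between roles. Red is above and blue below the gene's mean. Library 1 of the lower dose is mostly red (21 of 29 genes above their mean) and libraries 2 and 3 of that dose mostly blue (5 and 8 of 29 above).

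Roles differed in how far they followed this shape. Over the 12 genes from squalene to cholesterol, the mean centred log2 CPM was 0.0904, -0.1151 and -0.0586 in the lower-dose libraries, against -0.0723, -0.0354 and 0.0751 in control. Over the 6 genes of the first stage it was 0.0857, -0.1256 and -0.0111 in the lower-dose libraries, against -0.0536, -0.0515 and 0.0235 in control. The mean of the prenyl genes FDPS and GGPS1 was -0.0880, -0.0159 and 0.0124 in the lower-dose libraries, against -0.0060, -0.0212 and 0.0092 in control. Library 1 of the lower dose was thus the lowest of the 9 for this mean, which rested on GGPS1 alone (-0.1927 in that library). In the lower-dose libraries FDPS followed the shape of the list, with 0.0167, -0.067 and -0.049. In control it did not, with -0.0005, -0.0123 and -0.0423. The transport genes spanned the narrowest range of any role, from -0.0395 to 0.0399.

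**Figure D4:**
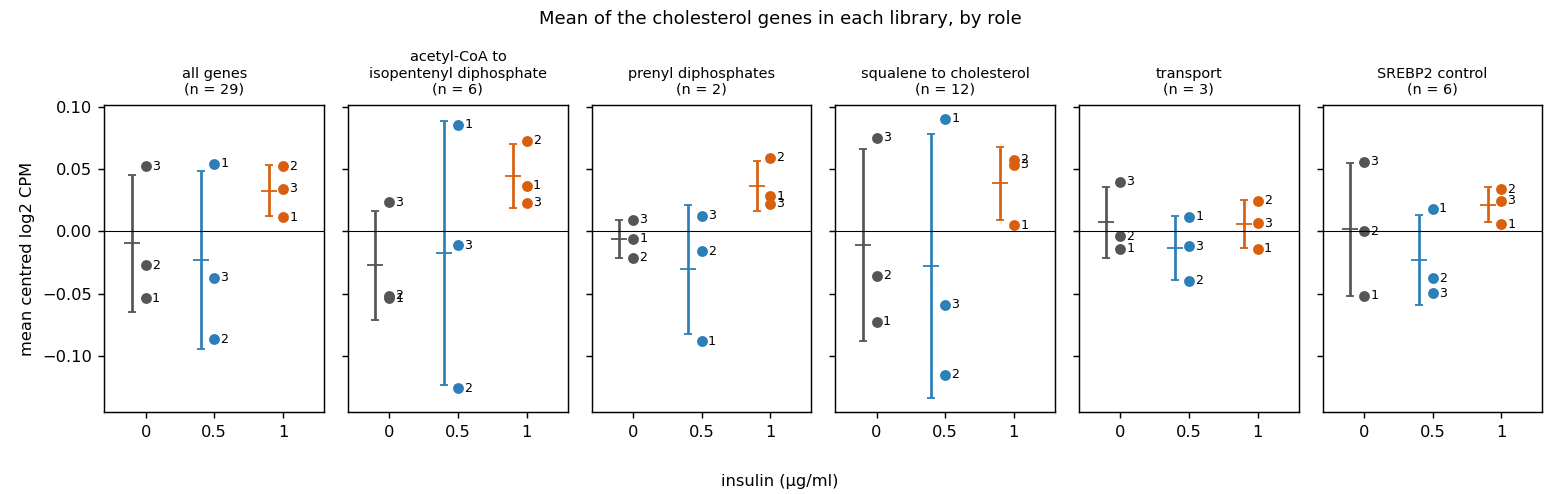
Mean centred log2 CPM of the list and of each role in each library (points, numbered by library), with the mean and SD of each group (n = 3) beside them, against the insulin dose in µg/ml. The range is widest in the lower dose for the list (-0.0866 to 0.0541) and for the genes from squalene to cholesterol (-0.1151 to 0.0904), and the groups overlap in both.

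Without library 1 of the lower dose, the lower-dose group had 2 libraries and is assumed in the fit to vary like the other groups. Lower dose against control, 7 of 29 genes then had an unadjusted p under 0.05 (background 6.68%), all lower at the lower dose: HMGCS1, IDI1, LSS, MSMO1, SC5D, STARD4 and INSIG1. The fold change was above 0 for 8 of 29, against 50.6% of all genes, with a median log2 fold change of -0.04. INSIG1 had the smallest p, with a log2 fold change of -0.26 ± 0.06 (SE, adjusted p = 0.493, edgeR). Higher dose against lower dose, 12 of 29 had an unadjusted p under 0.05 (background 7.45%), all higher at the higher dose: CYP51A1, DHCR7, FDFT1, FDPS, HMGCS1, HSD17B7, IDI1, INSIG1, LSS, MSMO1, MVD and SC5D. The fold change was above 0 for 24 of 29, against 50.5% of all genes, and the median log2 fold change was 0.10. INSIG1 again had the smallest p, with 0.28 ± 0.06 (SE, adjusted p = 0.166, edgeR). None of the 29 was called in either comparison without that library, and whether the library or the remaining ones better stand for the dose was not tested. As the genes varied together, these counts do not stand for as many separate observations.

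Most of the genes varied together within groups. Pearson's r was taken between the log2 CPM of 2 genes after the group means were removed, over the 9 libraries; these share 3 fitted means and library 1 of the lower dose weighs on all of them, so the values are a description without a test. The median r was 0.38 over the 406 pairs of the list, with 73.6% of pairs above 0, and 0.45 over the 190 pairs of the 20 synthesis enzymes, with 78.4% above 0. Over all pairs of tested genes the median was 0.00, with 50% above 0. The most alike were SQLE and SCAP (r = 0.98), MVD and FDFT1 (0.97) and MVD and INSIG1 (0.95). INSIG2 ran against most of the list, with a median r of -0.66 with the other 28 genes and an r of -0.85 with INSIG1, though its r was 0.58 with GGPS1 and 0.28 with PMVK. GGPS1, PMVK and MBTPS2 also had medians below 0 (-0.40, -0.28 and -0.10).

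**Figure D5:**
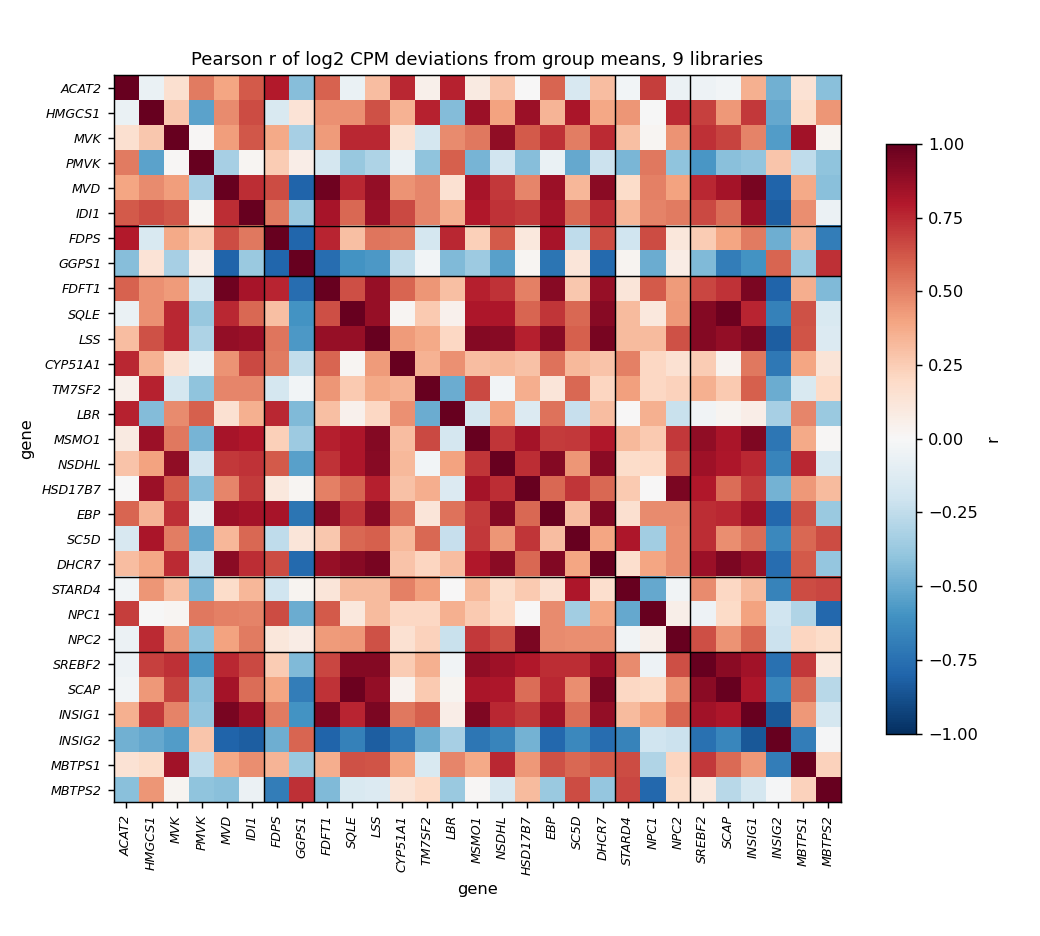
Pearson's r between each pair of the 29 genes over the 9 libraries, computed on log2 CPM after the group means were removed, with lines between roles. Red is positive and blue negative. Most of the field is red (73.6% of pairs above 0), while the rows of INSIG2, GGPS1, PMVK and MBTPS2 hold many blue cells.

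The fatty acid arm, which is driven mainly by SREBP-1, followed the same libraries. Of 11 tested genes on a list of this arm, 0 were called in either direction in either comparison with control, 6 had a fold change above 0 at the lower dose and 10 at the higher dose, against 51.9% and 49.8% of all genes. The mean centred log2 CPM of these 11 genes was -0.0513, -0.0170 and 0.0494 in control, 0.0583, -0.0852 and -0.0451 at the lower dose and -0.0019, 0.0486 and 0.0443 at the higher dose, so that library 1 of the lower dose was again the highest and library 2 the lowest. SCD, the stearoyl-CoA desaturase, averaged 682 ± 22.6 CPM at the lower dose and 733 ± 76.9 CPM in control. ME1, which makes NADPH from malate, averaged 64.8 ± 1.55 CPM at the lower dose and 68.7 ± 2.52 CPM in control (SD, n = 3 each). At the higher dose ELOVL6, a fatty acid elongase, averaged 34.4 ± 0.0606 CPM, against 32.5 ± 1.05 CPM in control, and FADS1, a fatty acid desaturase, 220.1 ± 7.14 CPM, against 211 ± 9.62 CPM (SD, n = 3 each).

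The proteins that act on the SREBP pathway from outside the list were also without a call. Of 16 tested regulators, 0 were called in either direction against control, with 8 above 0 at the lower dose and 10 at the higher dose, against 51.9% and 49.8% of all genes. NFYB, a subunit of NF-Y, averaged 40.5 ± 1.71 CPM at the lower dose and 45.6 ± 2.56 CPM in control, and PAQR3, which tethers SCAP to the Golgi, 36.2 ± 0.894 and 39.7 ± 0.742 CPM (SD, n = 3 each). Both had all lower-dose libraries below all controls, as had 5.61% of all genes, with adjusted p = 0.764 for NFYB and 0.792 for PAQR3 by edgeR. At the higher dose, FBXW7, part of the ligase that degrades nuclear SREBP, averaged 21.5 ± 1.97 CPM, against 19.2 ± 1.66 CPM in control, and ERLIN2, which binds the SREBP-SCAP-INSIG complex, 39.8 ± 0.746 CPM, against 37.1 ± 1.93 CPM (SD, n = 3 each).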

How the data were processed

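RNA was extracted with TRIzol and made into libraries with a VAHTS Universal kit, per the labels' protocols. The authors deposited raw read counts per gene symbol and FPKM values for the same libraries. Per the submitters' processing notes, the tools were Trimmomatic, HTSeq and DESeq (no versions or roles given) and the build hg38. The sources used here do not give the aligner, annotation or strand setting. FPKM as deposited was the deposited count rescaled for all 11053 genes checked (tolerance 1e-04) and served to compare levels between genes and for an alternative.

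Genes were filtered with filterByExpr (minimum count 10, minimum total 15), which kept 12665 genes (3318 left out). A TMM-scaled fit to all 9 libraries was made with edgeR 4.0.16 in R 4.3.3 (quasi-likelihood F-test, two-sided, Benjamini-Hochberg over all tested genes, call at 0.05). SE is the absolute log2 fold change over the root of F. CPM values are TMM-scaled, and centred values use log2 CPM with a prior count of 2. The common biological coefficient of variation was 5.39%. DESeq2 1.42.0 and limma 3.58.1 on log2(FPKM + 1) were alternatives, with RLE scaling, other filters, the 2 compared groups alone, a replicate block and each library left out. The pipeline was tested on simulated counts. Gene positions and overlaps come from GENCODE 29 on hg38, and shared transcript lengths from BLAST 2.17.0 (at least 97% identity over 100 bases). Promoters come from RefSeq.

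The members, gene lists and named genes were chosen with earlier results of these data known. Levels of all 29 genes are given; values per library are given for genes with an unadjusted p under 0.05 or groups that do not overlap in any comparison, and for HMGCS1, SQLE, INSIG1, SREBF2 and SCAP. Of each other list, the 2 genes of smallest p per comparison with control are named.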

Additional observations from a re-analysis of the deposited data

How the results depend on the processing

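No alternative called any of the 29 genes. Over all tested genes, where edgeR called 0 in each comparison, dropping the count filter gave 6 calls for the lower dose against control, 3 for the higher dose against control, 4 for the higher against the lower dose and 8 over the 3 groups, and DESeq2 gave 1 over the 3 groups; none was on the list. Leaving out 1 library gave 0 to 1, 0 to 2 and 0 to 3 calls for the lower dose against control, the higher against the lower dose and the 3 groups. The median log2 fold change of the list between the higher and the lower dose ran from 0.0141 to 0.0979 when 1 library was left out, highest without library 1 of the lower dose. Of 448 values for single genes, 438 kept their direction and their side of the threshold, and 10 changed sign, all with 1 library left out. These log2 fold changes then ran from -0.0245 to 0.0435 for SREBF2 and from -0.0932 to 0.0150 for SQLE at the lower dose against control, and from -0.0088 to 0.162 for HMGCS1 and from -0.0222 to 0.0845 for INSIG1 at the higher dose against control. The cause was not tested. The correlations did not settle whether the replicate numbers pair the libraries. Same-numbered libraries had deviations correlated at over 0.1 in 1 of 9 pairs (range -0.01 to 0.16), but 12 of 18 cases correlated best with their own number. With the replicate number as a block, 0 genes were called in every comparison, and the median log2 fold change of the list was -0.01 at the lower dose and 0.04 at the higher dose against control, and 0.04 between the doses. At these depths the intervals of TM7SF2 and HSD17B7, the least abundant genes, were the widest.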

Other observations

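Genes that store, move or export cholesterol, use isoprenoids or use cholesterol for steroids were also without a call in either direction in either comparison with control. Of 14 tested genes of storage and efflux, 9 had a fold change above 0 at the lower dose and 5 at the higher dose. The shares over all genes were 51.9% and 49.8%. OSBPL8, which carries lipids between membranes, averaged 87.5 ± 1.83 CPM at the lower dose and 94.8 ± 6.93 CPM in control (SD, n = 3 each), with all lower-dose libraries below all controls (adjusted p = 0.792, edgeR). GRAMD1A, a cholesterol carrier, averaged 76.3 ± 4.77 and 71.4 ± 3.24 CPM in the same order. At the higher dose MYLIP, a ligase that marks lipoprotein receptors for degradation, averaged 13.5 ± 2.38 CPM, against 15.1 ± 1.18 CPM in control, and SCARB1, the HDL receptor gene, 39.5 ± 4.42 CPM, against 42.5 ± 4.04 CPM (SD, n = 3 each).

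Of 13 genes that use isoprenoids, 5 were above 0 at the lower dose and 6 at the higher dose, against 51.9% and 49.8% of all genes. An unadjusted p under 0.05 by edgeR was found for 0 of the 13 at the lower dose (background 6.08%). At the higher dose it was found for 2, RABGGTB and PGGT1B, both lower than control (background 2.35%). RABGGTB, a subunit of the enzyme that prenylates Rab proteins, averaged 70.9 ± 2.62 CPM in control, 65.99 ± 4.55 CPM at the lower dose and 63.96 ± 2.69 CPM at the higher dose (SD, n = 3 each). Its higher-dose libraries all lay below all controls, as did those of 3.92% of all genes. NUS1, needed for dolichol synthesis, averaged 51.2 ± 1.37 CPM at the lower dose and 54.9 ± 2.62 CPM in control. PGGT1B, a geranylgeranyl transferase subunit, averaged 21.7 ± 0.808 CPM at the higher dose and 24.8 ± 2.73 CPM in control.

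Of 6 tested genes of steroid synthesis, 3 were above 0 at each dose, against 51.9% of all genes at the lower dose and 49.8% at the higher dose. CYP19A1, aromatase, averaged 7.69 ± 1.00 CPM at the lower dose and 8.64 ± 1.40 CPM in control. FDXR, which passes electrons to the mitochondrial steroid enzymes, averaged 31.4 ± 1.04 CPM in control, 33.3 ± 2.96 CPM at the lower dose and 29.6 ± 2.33 CPM at the higher dose. STAR, which brings cholesterol into mitochondria, averaged 29.5 ± 5.91 CPM at the higher dose and 27.9 ± 3.08 CPM in control (SD, n = 3 each).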
